A study of Homo sapiens with 9 samples.

Results

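The 38 genes described here encode proteins that make, modify, store and burn fatty acids. They were chosen by symbol, as rows of the deposited count table, from a list that covers fatty acid synthesis, desaturation and elongation, acyl-CoA synthetases, glycerolipid assembly, the lipid droplet, fatty acid uptake and binding, nuclear receptors and mitochondrial oxidation. All 38 were found among the 30000 rows of the table, and 36 had enough reads to be tested. The RNA came from THP-1, a human monocytic leukaemia line, in 9 libraries of 3 groups. The cells had been given ectosomes of Huh7 hepatoma cells with PKM2 knocked down (3 libraries), ectosomes of Huh7 cells carrying a scramble shRNA (3 libraries), or were controls whose labels name no ectosomes (3 libraries). Ectosomes are shed from the surface of cells as vesicles, and PKM2 is an isoform of the glycolytic enzyme pyruvate kinase. The labels name the shRNA but not the cell it was expressed in, and reading it as the Huh7 donor cell rests on the series title and on the sample names. The sources used here give neither the dose of ectosomes nor the incubation time nor the PKM2 left in the donor cells.

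As background, cells build saturated fatty acids from acetyl-CoA with acetyl-CoA carboxylase and fatty acid synthase, under control of the transcription factor SREBP-1, and then desaturate and elongate them. Fatty acids bound to coenzyme A are joined to glycerol and kept as triglyceride in lipid droplets coated by perilipins, from which lipases release them again for oxidation in mitochondria. Macrophages are known to change this balance when activated, and the receptors PPARγ and PPARδ, which sense fatty acids, switch on genes of lipid storage and oxidation in them.

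Totals ran from 17744587 to 23864381 counts per library. Levels are TMM-scaled CPM, that is counts divided by a library size corrected for composition. The markers PTPRC and SPI1 of blood and myeloid cells were found in every library, at 206 to 633 CPM and 220 to 601 CPM. They belong to a list of 10 monocyte markers, of which 3 rose and 6 fell with scramble ectosomes against control. Among the controls, replicate 3 was unlike the others: its counts differed from control replicates 1 and 2 by a chi-square per degree of freedom of 43.6 and 40.1, where all other pairs of replicates lay between 2.44 and 6.50. Of the 36 genes tested, 11 stood at least 1.5-fold lower in control replicate 3 than in the mean of the other controls and 1 stood at least 1.5-fold higher. Values against control are therefore also given without that library for many of these 36 genes, but not for genes outside them. PKM itself, counted in THP-1 cells without separating isoforms, had 2181 to 2454 CPM with PKM2-knockdown ectosomes, 3376 to 3573 CPM with scramble ectosomes and 428 to 789 CPM in control cells. The labels do not say whether cultures were separate, so the p-values cover no more than the spread among these libraries, which may be technical, and in bulk RNA fewer cells of a kind and less RNA per cell cannot be told apart.

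With scramble ectosomes against control, all 4 acyl-CoA synthetases rose, SCD, FADS1 and FADS2 fell, and 5 of 6 genes of mitochondrial oxidation fell. The 8 tested genes of glycerolipid assembly were divided, with GPAT3, LPIN2 and DGAT2 higher and AGPAT2, DGAT1 and LPCAT3 lower. Of the 36 genes, 16 rose and 13 fell with scramble ectosomes against control (Benjamini-Hochberg adjusted p under 0.05), that is 29 called, where 67.8% of all 18437 rows tested were called, 34.6% higher and 33.2% lower. The near-even division into higher and lower is thus also that of all rows. Without control replicate 3 the counts were 16 and 15, while calls over all rows rose from 12492 to 13640 (7022 higher and 6618 lower). With PKM2-knockdown ectosomes against scramble ectosomes 17 rose and 8 fell, 25 called, where 61.6% of all rows were called, 31.4% higher and 30.3% lower. Against control, PKM2-knockdown ectosomes gave 16 higher and 8 lower, 24 called, where 53.7% of all rows were called, 27% higher and 26.7% lower. Leaving out control replicate 3 gave 17 and 10, while calls over all rows rose from 9904 to 10997 (5542 higher and 5455 lower). Libraries did not overlap for 31 of the 36 genes with scramble ectosomes against control, where they did not for 71.3% of all rows. They did not for 30 genes and 74.5% of all rows between the kinds of ectosomes, and for 26 genes and 60.5% of all rows with PKM2-knockdown ectosomes against control. Of called changes of at least 2-fold, scramble ectosomes against control gave 10 higher and 4 lower genes, where 36.6% of all rows reached this size, 18.1% higher and 18.5% lower. Between the kinds of ectosomes 4 genes were higher and 3 lower by this rule, where 28.8% of all rows were, 18% higher and 10.8% lower. With PKM2-knockdown ectosomes against control 9 were higher and 2 lower, where 21.8% of all rows were, 14.5% higher and 7.22% lower.

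The median size of a change, without its sign, was 0.81 log2 units for the 36 genes against 0.74 for all rows with scramble ectosomes over control, 0.75 against 0.61 for the 2 kinds of ectosomes, and 0.49 against 0.50 with PKM2-knockdown ectosomes over control. The share of genes called thus has to be read against a transcriptome in which most rows were called, and the comparisons share libraries with each other.

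**Figure D1:**
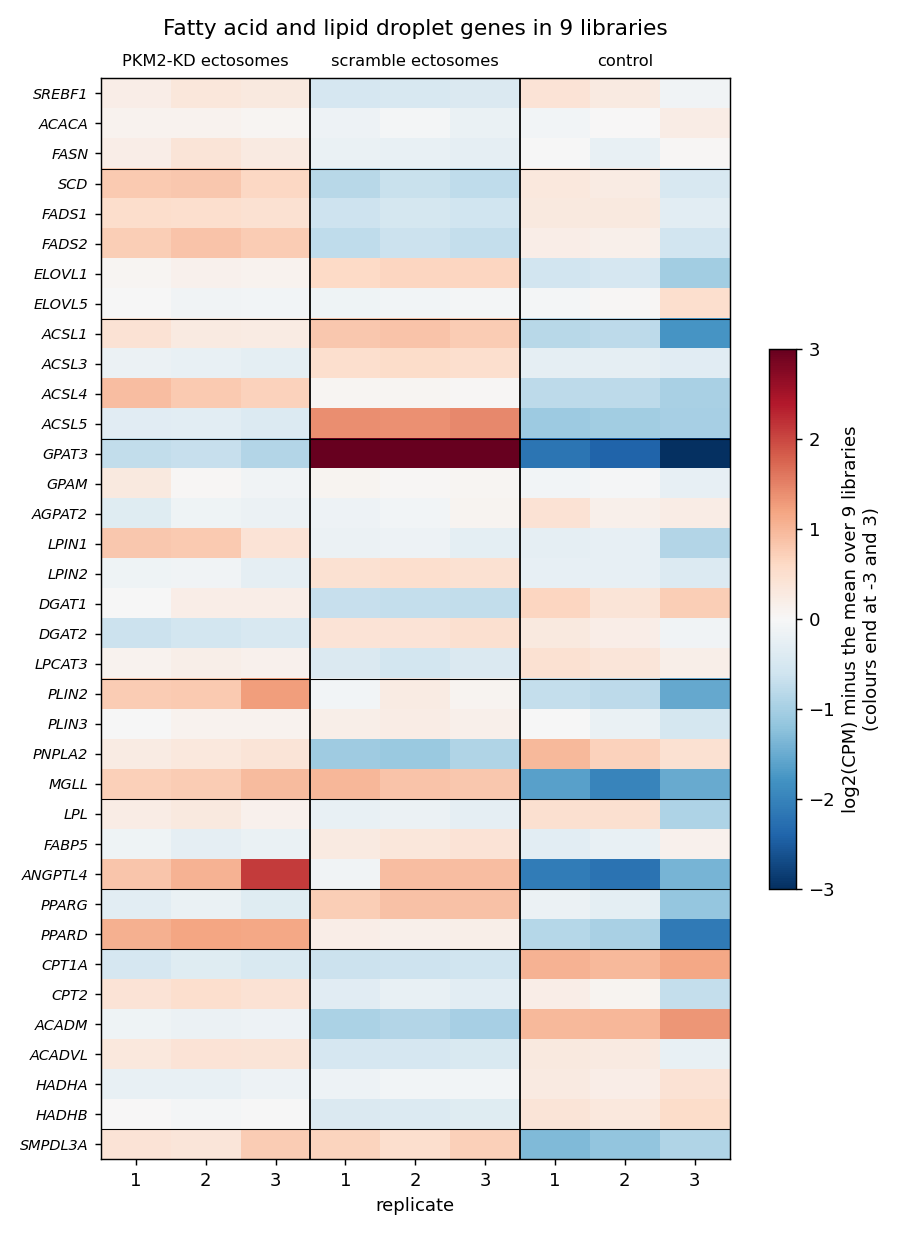
Levels of the 36 tested genes (rows) in the 9 libraries (columns, by replicate within each group), as log2 CPM minus the gene's mean over all 9 libraries, in red where higher and in blue where lower, with colours ending at -3 and 3; lines part the groups of libraries and of genes. GPAT3 is high in all 3 scramble-ectosome libraries, and control replicate 3 is lower than the other controls in PPARD, ACSL1 and SCD.

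Genes of fatty acid synthesis were higher with PKM2-knockdown than with scramble ectosomes. SREBF1, which encodes SREBP-1, had 286, 317 and 308 CPM with PKM2-knockdown ectosomes, 177, 179 and 186 CPM with scramble ectosomes, and 334, 303 and 232 CPM in control cells. The scramble-ectosome libraries lay below all libraries of the other groups, and those of the other groups overlapped. SREBF1 rose 1.68-fold with PKM2-knockdown against scramble ectosomes (adjusted p = 0.000271, log2 fold change 0.75 with an SE of 0.12) and fell by 0.68 log2 units with scramble ectosomes against control (SE 0.12, adjusted p = 0.000416), while PKM2-knockdown ectosomes and control did not pass the test (log2 fold change 0.07, adjusted p = 0.647). FASN, encoding the synthase that builds palmitate, had 1089, 1229 and 1141 CPM with PKM2-knockdown ectosomes, 818, 814 and 780 CPM with scramble ectosomes, and 939, 814 and 968 CPM in control cells. It was 1.43-fold higher with PKM2-knockdown than with scramble ectosomes (adjusted p = 0.000411) and 1.27-fold higher than in control (adjusted p = 0.00644), and for scramble ectosomes against control the log2 fold change was -0.17 (adjusted p = 0.0982), which passed the test with library totals alone (0.000994) and without control replicate 2 (0.0247). ACACA, encoding the cytosolic acetyl-CoA carboxylase that supplies malonyl-CoA, ranged from 158 to 164 CPM with PKM2-knockdown ectosomes, 133 to 145 CPM with scramble ectosomes and 143 to 178 CPM in control cells. Its rise of 1.17-fold between the kinds of ectosomes (adjusted p = 0.0479) ended when any library of either kind was left out (adjusted p from 0.0661 to 0.158), with DESeq2 size factors (0.0606), with the DESeq2 Wald test (0.0625) and with replicate number as a block in the fit (0.0713). With scramble ectosomes against control its log2 fold change was -0.19 (adjusted p = 0.0756), which passed the test with library totals alone (0.00133) and without control replicate 1 (0.0273).

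SCD and FADS2 had the largest fold changes between the kinds of ectosomes among the members of synthesis, desaturation and elongation. SCD encodes stearoyl-CoA desaturase, which puts the first double bond into saturated fatty acids, and had 1845, 1883 and 1645 CPM with PKM2-knockdown ectosomes, 598, 670 and 633 CPM with scramble ectosomes, and 1326, 1283 and 764 CPM in control cells. No library of a group overlapped with another group. SCD rose 2.82-fold with PKM2-knockdown against scramble ectosomes (adjusted p = 3.37e-05, log2 fold change 1.498 with an SE of 0.18) and 1.59-fold against control (adjusted p = 0.00738), or 1.37-fold without control replicate 3. With scramble ectosomes it was 1.77-fold lower than in control (adjusted p = 0.00151), or 2.06-fold without control replicate 3.

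FADS2, encoding the delta-6 desaturase of polyunsaturated fatty acids, had 933, 1007 and 951 CPM with PKM2-knockdown ectosomes, 329, 357 and 343 CPM with scramble ectosomes, and 645, 621 and 377 CPM in control cells. It was 2.81-fold higher with PKM2-knockdown than with scramble ectosomes (adjusted p = 2.49e-05, log2 fold change 1.49 with an SE of 0.17), 1.76-fold higher than in control (adjusted p = 0.00179), and 1.60-fold lower with scramble ectosomes than in control (adjusted p = 0.00393). Without control replicate 3, FADS2 was 1.52-fold higher with PKM2-knockdown ectosomes and 1.85-fold lower with scramble ectosomes than in control. FADS1, encoding the delta-5 desaturase, had 519, 515 and 494 CPM with PKM2-knockdown ectosomes, 236, 252 and 238 CPM with scramble ectosomes, and 440, 440 and 290 CPM in control cells. Its order of groups was that of SCD and FADS2, with a rise of 2.10-fold between the kinds of ectosomes (adjusted p = 6.95e-05) and a fall of 0.69 log2 units with scramble ectosomes against control (adjusted p = 0.00116), or 0.86 without control replicate 3. The rise of FADS1 with PKM2-knockdown ectosomes against control (1.31-fold, adjusted p = 0.0357) was 1.16-fold without control replicate 3 (adjusted p = 0.00397). It ended without any PKM2-knockdown-ectosome library (adjusted p from 0.0651 to 0.0901), with library totals alone (0.0722) and in a fit of these 6 libraries alone (0.0873). FADS1 and FADS2 overlap on opposite strands on chromosome 11, and as the strand setting of the counting is not given, their reads may not have been fully told apart. FADS2 also overlaps FEN1 on its own strand.

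ELOVL1 and ELOVL5 did not share the order of groups of SCD, FADS1 and FADS2. ELOVL1, encoding an elongase of very long saturated fatty acids, had 281, 293 and 288 CPM with PKM2-knockdown ectosomes, 404, 417 and 419 CPM with scramble ectosomes, and 180, 189 and 130 CPM in control cells. It rose 2.49-fold with scramble ectosomes against control (adjusted p = 4.04e-06, log2 fold change 1.32 with an SE of 0.12) and 1.73-fold with PKM2-knockdown ectosomes against control (adjusted p = 0.000302), and fell by 0.53 log2 units between the kinds of ectosomes (adjusted p = 0.0033). ELOVL5, encoding an elongase of polyunsaturated fatty acids, ranged from 248 to 267 CPM with PKM2-knockdown ectosomes, 245 to 255 CPM with scramble ectosomes and 258 to 380 CPM in control cells, and passed the test in no comparison (adjusted p from 0.0767 to 0.856), although it was called lower with scramble ectosomes than in control with library totals alone, with no filter on low counts, and without control replicate 1 or 2 (adjusted p from 0.00412 to 0.0477), and lower with PKM2-knockdown ectosomes than in control without control replicate 1 (0.0354). ELOVL6, the elongase that turns palmitate into stearate, had 1 read in some libraries and 0 in the others and was not tested.

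Upstream sequence of SCD is shown because SCD had the highest level per length of the 38 genes with PKM2-knockdown ectosomes and was called in all 3 comparisons. The stretch is chr10:100346983-100347123, plus strand, from the RefSeq promoter table on GRCh38.p14, and ends at the first base before the GENCODE transcripts of the gene. Capitals mark the letters CCAAT, known as the box bound by NF-Y, a factor that often acts beside SREBPs.
SCD: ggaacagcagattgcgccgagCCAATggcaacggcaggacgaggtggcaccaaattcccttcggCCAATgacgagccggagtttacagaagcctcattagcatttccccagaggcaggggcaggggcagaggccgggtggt
The 250 bases before the RefSeq starts were searched on both strands for 30 of the 38 genes that had an entry in the table. FASN, DGAT1, DGAT2, MGLL, LPL, FABP4, FABP5 and SMPDL3A had none. CCAAT was found in 10 of the 30 genes and in 37% of 27305 genes with an entry, and the GC box GGGCGG in 26 of the 30 and in 46.2%. The core of the SREBP site, TCACNCCAC, was found in ACSL1 and PNPLA2 and in 1.09% of all genes. Direct repeats of AGGTCA with 1 and with 4 bases between them, known from PPAR and LXR sites, were found in 0 of the 30 and in 0.022% and 0.0183% of all genes. These are matches of letters, and no match says only that the letters are not in this window.

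**Figure D2:**
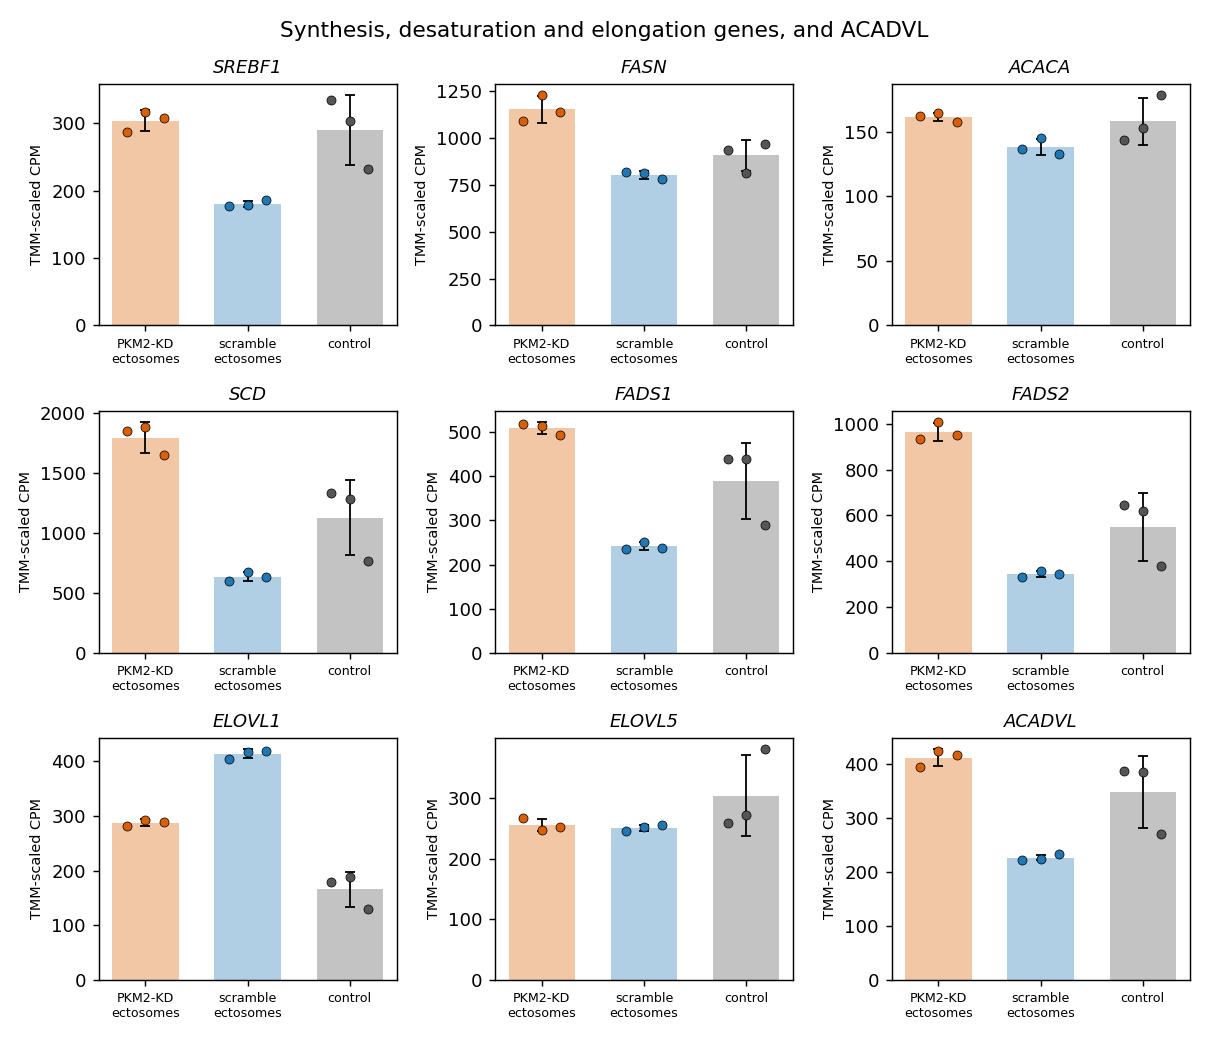
TMM-scaled CPM of synthesis, desaturation and elongation genes, and of ACADVL, an acyl-CoA dehydrogenase of mitochondria, in the 3 groups; bars are means, error bars SDs over 3 libraries, and points libraries in replicate order. SCD, FADS1 and FADS2 are highest with PKM2-knockdown ectosomes and lowest with scramble ectosomes, while ELOVL1 is highest with scramble ectosomes.

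Acyl-CoA synthetases, which activate free fatty acids by joining them to coenzyme A, all rose with scramble ectosomes against control, 4 of 4. Between the kinds of ectosomes 1 rose and 2 fell. ACSL5, an isoform of mitochondria and endoplasmic reticulum, had 52.1, 53.5 and 50.0 CPM with PKM2-knockdown ectosomes, 173, 172 and 181 CPM with scramble ectosomes, and 31.1, 31.9 and 33.1 CPM in control cells. It rose 5.47-fold with scramble ectosomes against control (adjusted p = 1.46e-09, log2 fold change 2.45 with an SE of 0.07) and 1.62-fold with PKM2-knockdown ectosomes against control (adjusted p = 1.37e-05), and was 3.38-fold lower with PKM2-knockdown than with scramble ectosomes (adjusted p = 3.15e-08). ACSL4, which prefers arachidonic acid and other polyunsaturated fatty acids, took another order, with 477, 432 and 409 CPM with PKM2-knockdown ectosomes, 264, 263 and 257 CPM with scramble ectosomes, and 148, 146 and 129 CPM in control cells. Its groups did not overlap, and it rose 3.12-fold with PKM2-knockdown ectosomes against control (adjusted p = 1.87e-07), 1.86-fold with scramble ectosomes against control (adjusted p = 4.91e-06) and 1.68-fold between the kinds of ectosomes (adjusted p = 2.65e-05).

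ACSL1, the main long-chain acyl-CoA synthetase of activated macrophages, had 177, 159 and 157 CPM with PKM2-knockdown ectosomes, 231, 239 and 223 CPM with scramble ectosomes, and 73.3, 76.5 and 38.5 CPM in control cells. Against control it rose 2.62-fold with PKM2-knockdown ectosomes (adjusted p = 0.000212) and 3.68-fold with scramble ectosomes (adjusted p = 1.32e-05), or 2.19-fold and 3.08-fold without control replicate 3. The difference between the kinds of ectosomes, a log2 fold change of -0.49, missed the threshold (adjusted p = 0.0506), and passed it with DESeq2 size factors, the 6 libraries alone, replicate number as a block and the DESeq2 Wald test (adjusted p from 4.05e-07 to 0.0442). ACSL3, an isoform found on nascent lipid droplets, had 137 to 148 CPM with PKM2-knockdown ectosomes, 237 to 246 CPM with scramble ectosomes and 131 to 140 CPM in control cells. It rose 1.76-fold with scramble ectosomes against control (adjusted p = 1.86e-06) and was 1.69-fold lower with PKM2-knockdown than with scramble ectosomes (adjusted p = 5.68e-06), while the log2 fold change of PKM2-knockdown ectosomes over control was 0.06 (SE 0.07, adjusted p = 0.48).

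Among the genes of glycerolipid assembly, GPAT3 showed the largest change of the 36 genes in each comparison with scramble ectosomes. GPAT3 encodes a glycerol-3-phosphate acyltransferase of the endoplasmic reticulum, which starts triglyceride synthesis. Its levels were 4.07, 4.27 and 3.72 CPM with PKM2-knockdown ectosomes, 94.3, 98.1 and 103 CPM with scramble ectosomes, and 1.49, 1.29 and 0.28 CPM in control cells, where the libraries held 28, 30 and 5 reads. All scramble-ectosome libraries lay far above the others. GPAT3 rose 93.9-fold with scramble ectosomes against control (adjusted p = 1.20e-08, log2 fold change 6.55 with an SE of 0.27), or 70.8-fold without control replicate 3, and was 24.4-fold lower with PKM2-knockdown than with scramble ectosomes (adjusted p = 1.07e-07, log2 fold change -4.61 with an SE of 0.23). With PKM2-knockdown ectosomes it rose 3.85-fold against control (adjusted p = 0.000371), or 2.90-fold without control replicate 3. GPAM, the mitochondrial enzyme of the same step, ranged over all libraries from 5.35 to 7.90 CPM and passed the test in no comparison (adjusted p from 0.24 to 0.83). AGPAT2, which adds the next acyl chain, had 77.8 to 91.1 CPM with PKM2-knockdown ectosomes, 89.1 to 106 CPM with scramble ectosomes and 110 to 133 CPM in control cells. It was 1.40-fold lower with PKM2-knockdown ectosomes than in control (adjusted p = 0.00213) and 1.24-fold lower with scramble ectosomes (adjusted p = 0.0176), and the last call ended without control replicate 1 or scramble replicate 1 or 2 (adjusted p from 0.0629 to 0.0866).

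The lipins, phosphatidate phosphatases that make diacylglycerol, moved apart. LPIN1 had 83.8, 83.0 and 64.1 CPM with PKM2-knockdown ectosomes, 42.5, 43.1 and 39.4 CPM with scramble ectosomes, and 40.2, 40.6 and 26.3 CPM in control cells. It rose 1.85-fold with PKM2-knockdown against scramble ectosomes (adjusted p = 0.000654) and 2.15-fold against control (adjusted p = 0.000195), with a log2 fold change of 0.22 for scramble ectosomes against control (adjusted p = 0.242). Without control replicate 3, LPIN1 rose 1.90-fold with PKM2-knockdown ectosomes against control, and the log2 fold change with scramble ectosomes was 0.04 (adjusted p = 0.713). LPIN2 had 41.1 to 45.8 CPM with PKM2-knockdown ectosomes, 67.8 to 70.6 CPM with scramble ectosomes and 37.3 to 41.9 CPM in control cells. It rose 1.70-fold with scramble ectosomes against control (adjusted p = 8.09e-06) and was 1.56-fold lower with PKM2-knockdown than with scramble ectosomes (adjusted p = 4.46e-05).

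The DGAT enzymes, which add the last acyl chain of triglyceride and are not related in sequence, changed in opposite directions between the kinds of ectosomes. DGAT1 had 90.4, 104 and 105 CPM with PKM2-knockdown ectosomes, 56.0, 55.1 and 54.4 CPM with scramble ectosomes, and 141, 118 and 152 CPM in control cells. It was 2.48-fold lower with scramble ectosomes than in control (adjusted p = 9.33e-07, log2 fold change -1.31 with an SE of 0.10), 1.37-fold lower with PKM2-knockdown ectosomes than in control (adjusted p = 0.00273), and 1.81-fold higher with PKM2-knockdown than with scramble ectosomes (adjusted p = 3.42e-05). DGAT2 had 23.7, 25.5 and 26.5 CPM with PKM2-knockdown ectosomes, 49.2, 49.6 and 52.3 CPM with scramble ectosomes, and 45.9, 42.5 and 34.5 CPM in control cells. The PKM2-knockdown-ectosome libraries lay below all others, with DGAT2 1.997-fold lower than with scramble ectosomes (adjusted p = 1.72e-05, log2 fold change -0.998 with an SE of 0.11) and 1.63-fold lower than in control (adjusted p = 0.000278). Its rise with scramble ectosomes against control (1.23-fold, adjusted p = 0.0268) was weak and ended with library totals alone (adjusted p = 0.493), with all rows kept (0.0766), in a fit of these 6 libraries (0.0945) and without scramble replicate 2 (0.0541) or 3 (0.0802). LPCAT3, which puts polyunsaturated fatty acids into phosphatidylcholine, was low, at 12.1 to 12.7 CPM with PKM2-knockdown ectosomes, 7.74 to 8.39 CPM with scramble ectosomes and 12.8 to 15.6 CPM in control cells. It was 1.51-fold higher with PKM2-knockdown than with scramble ectosomes (adjusted p = 0.000861) and 1.75-fold lower with scramble ectosomes than in control (adjusted p = 7.69e-05), and against control PKM2-knockdown ectosomes gave a log2 fold change of -0.21 (adjusted p = 0.126), or -0.29 without control replicate 3 (adjusted p = 0.0222). DGAT1 overlaps HSF1, and LPCAT3 overlaps EMG1 and C1S, on the other strand.

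Of the genes of the droplet coat and of lipolysis, PLIN2 rose in all 3 comparisons. PLIN2 encodes perilipin 2, the droplet coat protein of macrophages, and had 123, 126 and 173 CPM with PKM2-knockdown ectosomes, 69.3, 86.6 and 77.3 CPM with scramble ectosomes, and 44.4, 42.6 and 25.3 CPM in control cells. The groups did not overlap. It rose 3.75-fold with PKM2-knockdown ectosomes against control (adjusted p = 2.49e-05, log2 fold change 1.91 with an SE of 0.21), 2.07-fold with scramble ectosomes against control (adjusted p = 0.000839) and 1.81-fold between the kinds of ectosomes (adjusted p = 0.00331). Without control replicate 3 the folds against control were 3.23 and 1.78. PLIN3, a coat protein that also moves through the cytosol, was 1.32-fold higher with scramble ectosomes than in control (adjusted p = 0.00851), at 155 to 161 CPM against 96.8 to 138 CPM, a call that ended with library totals alone (adjusted p = 0.162). With PKM2-knockdown ectosomes PLIN3 had 137 to 150 CPM and did not pass the test against control (adjusted p = 0.0509), but passed it without control replicate 1 or 3 (adjusted p = 0.00764 and 0.0461).

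PNPLA2 encodes adipose triglyceride lipase, the enzyme that starts the breakdown of stored triglyceride. It had 73.8, 77.2 and 81.4 CPM with PKM2-knockdown ectosomes, 29.4, 28.8 and 33.1 CPM with scramble ectosomes, and 121, 99.4 and 85.7 CPM in control cells. It was 3.36-fold lower with scramble ectosomes than in control (adjusted p = 4.38e-07, log2 fold change -1.75 with an SE of 0.12) and 2.55-fold higher with PKM2-knockdown than with scramble ectosomes (adjusted p = 5.06e-06, log2 fold change 1.35 with an SE of 0.12). The remaining difference between PKM2-knockdown ectosomes and control, 1.32-fold lower (adjusted p = 0.0146), ended without PKM2-knockdown replicate 1 or 2 (adjusted p = 0.0577 and 0.053). Without control replicate 3 this difference was 1.43-fold (adjusted p = 1.82e-05). MGLL encodes monoglyceride lipase, which ends the same breakdown, and had 25.6, 26.7 and 30.5 CPM with PKM2-knockdown ectosomes, 31.5, 28.3 and 27.6 CPM with scramble ectosomes, and 5.11, 4.003 and 5.52 CPM in control cells. Ectosomes of both kinds overlapped with each other and lay above control, with MGLL 5.68-fold (adjusted p = 2.18e-07) and 5.99-fold (adjusted p = 5.61e-08) higher than in control and a log2 fold change of -0.08 between them (SE 0.12, adjusted p = 0.594).

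Upstream sequence of PNPLA2 is shown because it was the gene with the largest fall among lipases with scramble ectosomes and held the SREBP core. The stretch is chr11:818664-818901, plus strand, RefSeq on GRCh38.p14, and ends before the GENCODE transcripts. Capitals mark the match to TCACNCCAC, which reads on the minus strand.
PNPLA2: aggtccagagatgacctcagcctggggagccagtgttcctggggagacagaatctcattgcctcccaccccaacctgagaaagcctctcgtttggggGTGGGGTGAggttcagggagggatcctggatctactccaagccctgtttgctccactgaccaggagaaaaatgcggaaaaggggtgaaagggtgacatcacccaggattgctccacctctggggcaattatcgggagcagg
ACSL1, the other gene with this core, rose with scramble ectosomes. The match in ACSL1 lay before a RefSeq start further inside the gene, and none was found before its upstream start. The part of this core in the change of either gene was not tested.

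The nuclear receptors PPARD and PPARG differed in which ectosomes gave the higher level. PPARD encodes PPARδ, a fatty acid receptor found in most tissues, and had 841, 904 and 891 CPM with PKM2-knockdown ectosomes, 459, 444 and 456 CPM with scramble ectosomes, and 223, 205 and 92.2 CPM in control cells. It rose 5.07-fold with PKM2-knockdown ectosomes against control (adjusted p = 2.76e-05, log2 fold change 2.34 with an SE of 0.26), 2.61-fold with scramble ectosomes against control (adjusted p = 0.000514) and 1.94-fold between the kinds of ectosomes (adjusted p = 0.00596). Control replicate 3 was the lowest of all libraries, and without it the folds against control were 4.10 and 2.12. PPARG encodes PPARγ, the receptor of fat storage, and had 12.4, 13.4 and 12.01 CPM with PKM2-knockdown ectosomes, 25.4, 28.1 and 28.0 CPM with scramble ectosomes, and 13.6, 12.5 and 6.90 CPM in control cells. It rose 2.46-fold with scramble ectosomes against control (adjusted p = 0.000168), or 2.08-fold without control replicate 3, and was 2.15-fold lower with PKM2-knockdown than with scramble ectosomes (adjusted p = 0.000617). PKM2-knockdown ectosomes and control overlapped (adjusted p = 0.455, log2 fold change 0.19 with an SE of 0.20).

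Upstream sequence of PPARD is shown because it had the higher level per length of these receptors and was called in all 3 comparisons. The stretch is chr6:35342308-35342557, plus strand, RefSeq on GRCh38.p14, and holds the 250 bases before the start. Capitals mark CCAAT, which reads on the minus strand.
PPARD: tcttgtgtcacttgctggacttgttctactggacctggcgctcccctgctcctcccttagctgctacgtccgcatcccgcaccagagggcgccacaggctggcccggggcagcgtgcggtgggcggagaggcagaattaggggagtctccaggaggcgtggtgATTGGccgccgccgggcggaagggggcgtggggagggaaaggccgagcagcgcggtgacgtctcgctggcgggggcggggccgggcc

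**Figure D3:**
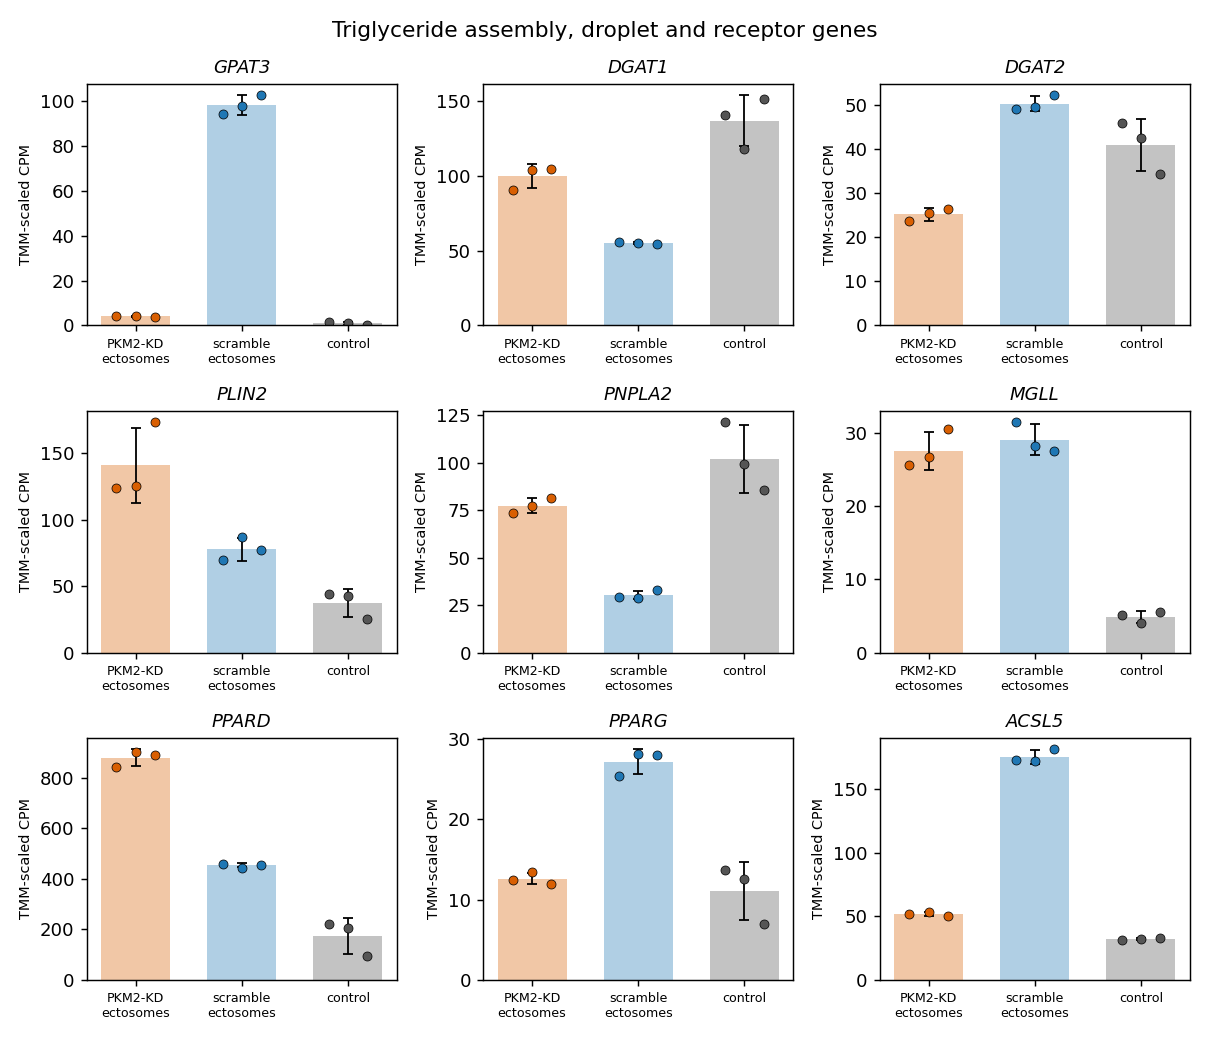
TMM-scaled CPM of triglyceride assembly, droplet, lipolysis and receptor genes and of ACSL5 in the 3 groups; bars are means, error bars SDs over 3 libraries, and points libraries in replicate order. GPAT3, ACSL5 and PPARG are highest with scramble ectosomes, PLIN2 and PPARD with PKM2-knockdown ectosomes, and DGAT1 and PNPLA2 are lowest with scramble ectosomes.

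Genes of uptake and binding were mostly low. ANGPTL4, a PPAR target that encodes a secreted inhibitor of lipoprotein lipase, had 2.85, 3.28 and 6.87 CPM with PKM2-knockdown ectosomes, 1.49, 3.05 and 3.02 CPM with scramble ectosomes, and 0.37, 0.34 and 0.61 CPM in control cells. It rose 9.80-fold with PKM2-knockdown ectosomes (adjusted p = 0.000171) and 5.70-fold with scramble ectosomes (adjusted p = 0.00087) against control, where the libraries held 7, 8 and 11 reads. Without control replicate 3 these folds were 11.8 and 6.88. Between the kinds of ectosomes the libraries overlapped (adjusted p = 0.0877, log2 fold change 0.78 with an SE of 0.37), a difference that passed the test with library totals alone, the 6 libraries alone, replicate number as a block and without PKM2-knockdown replicate 1 (adjusted p from 0.0199 to 0.0479). FABP5, a cytosolic fatty acid carrier, had 38.6 to 42.8 CPM with PKM2-knockdown ectosomes, 56.5 to 62.7 CPM with scramble ectosomes and 37.7 to 51.1 CPM in control cells. It rose 1.39-fold with scramble ectosomes against control (adjusted p = 0.00317) and was 1.46-fold lower with PKM2-knockdown than with scramble ectosomes (adjusted p = 0.00156). FABP5 has processed pseudogene copies, so its counts are uncertain. FABP4, the carrier of fat cells and of macrophages matured with PPARγ ligands, had at most 1 read in a library and was not tested.

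LPL, which encodes lipoprotein lipase, rested on control replicate 3. It had 16.2, 16.9 and 15.3 CPM with PKM2-knockdown ectosomes, 11.96, 12.4 and 11.6 CPM with scramble ectosomes, and 19.5, 19.3 and 7.29 CPM in control cells. No comparison passed the test (adjusted p from 0.205 to 0.861), although PKM2-knockdown against scramble ectosomes did in a fit of these 6 libraries (adjusted p = 0.000219). Without control replicate 3, LPL was 1.62-fold lower with scramble ectosomes than in control (adjusted p = 2.73e-06) and 1.20-fold lower with PKM2-knockdown ectosomes than in control (adjusted p = 0.0216).

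Genes of mitochondrial fatty acid oxidation were lower with scramble ectosomes, 5 of 6 falling and 0 rising against control, or 6 of 6 falling without control replicate 3. Between PKM2-knockdown and scramble ectosomes 4 of 6 rose and 0 fell, and against control PKM2-knockdown ectosomes gave 1 higher and 4 lower. ACADM, the medium-chain acyl-CoA dehydrogenase, had 44.7, 43.6 and 44.6 CPM with PKM2-knockdown ectosomes, 25.5, 26.7 and 24.5 CPM with scramble ectosomes, and 97.0, 98.2 and 122 CPM in control cells. The groups were far apart, with ACADM 4.14-fold lower with scramble ectosomes than in control (adjusted p = 3.03e-08, log2 fold change -2.05 with an SE of 0.10), 2.39-fold lower with PKM2-knockdown ectosomes than in control (adjusted p = 2.12e-06) and 1.73-fold higher with PKM2-knockdown than with scramble ectosomes (adjusted p = 4.66e-05). CPT1A, whose product controls the entry of fatty acids into mitochondria, had 33.8, 37.6 and 35.02 CPM with PKM2-knockdown ectosomes, 30.5, 31.3 and 31.7 CPM with scramble ectosomes, and 99.1, 94.6 and 108 CPM in control cells. Against control it was 2.83-fold lower with PKM2-knockdown ectosomes (adjusted p = 1.70e-07) and 3.22-fold lower with scramble ectosomes (adjusted p = 2.58e-08), and the log2 fold change of 0.19 between them (adjusted p = 0.062) passed the test only with library totals alone (adjusted p = 0.00102) and in a fit of these 6 libraries (0.0121). CPT1A is a known PPAR target, as are PLIN2 and ANGPTL4, which rose against control with both kinds of ectosomes. The part of PPARs in any of these changes was not tested.

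CPT2, which completes the carnitine shuttle inside mitochondria, had 48.7, 52.3 and 49.4 CPM with PKM2-knockdown ectosomes, 28.98, 31.6 and 29.4 CPM with scramble ectosomes, and 42.3, 38.9 and 22.5 CPM in control cells. It was 1.67-fold higher with PKM2-knockdown than with scramble ectosomes (adjusted p = 0.00472). Against control it was 1.45-fold higher with PKM2-knockdown ectosomes (adjusted p = 0.0282), a call that ended without any PKM2-knockdown-ectosome library (adjusted p from 0.0595 to 0.0763) and in a fit of these 6 libraries (0.0698). Without control replicate 3 this rise was 1.235-fold (adjusted p = 0.00142). With scramble ectosomes CPT2 had a log2 fold change of -0.20 against control (adjusted p = 0.339), and was 1.35-fold lower without control replicate 3 (adjusted p = 3.50e-05).

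ACADVL, the very-long-chain acyl-CoA dehydrogenase, had 394 to 424 CPM with PKM2-knockdown ectosomes, 223 to 233 CPM with scramble ectosomes and 270 to 388 CPM in control cells. It was 1.82-fold higher with PKM2-knockdown than with scramble ectosomes (adjusted p = 0.000149) and 1.54-fold lower with scramble ectosomes than in control (adjusted p = 0.00112). HADHA and HADHB encode the subunits of the trifunctional protein, which runs the last steps of long-chain oxidation, and overlap on opposite strands. ACADVL overlaps DLG4 on the other strand and ACADM overlaps RABGGTB on its own strand. HADHB had 113 to 117 CPM with PKM2-knockdown ectosomes, 86.4 to 91.8 CPM with scramble ectosomes and 145 to 173 CPM in control cells, and HADHA 257 to 271, 271 to 283 and 346 to 402 CPM in the same groups. Between the kinds of ectosomes HADHB was 1.31-fold higher (adjusted p = 0.00155) and HADHA had a log2 fold change of -0.09 (adjusted p = 0.319). Against control HADHB was 1.36-fold lower with PKM2-knockdown ectosomes and 1.78-fold lower with scramble ectosomes, and HADHA 1.42-fold and 1.33-fold lower (adjusted p up to 0.000761).

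SMPDL3A, a macrophage gene induced by LXR that encodes a phosphodiesterase related to sphingomyelinase, had 9.57, 9.38 and 12.4 CPM with PKM2-knockdown ectosomes, 11.5, 10.3 and 11.9 CPM with scramble ectosomes, and 2.88, 3.19 and 3.86 CPM in control cells. Like MGLL it rose with both kinds of ectosomes against control, 3.15-fold (adjusted p = 1.39e-05) and 3.40-fold (adjusted p = 3.68e-06), and overlapped between them (adjusted p = 0.542).

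**Figure D4:**
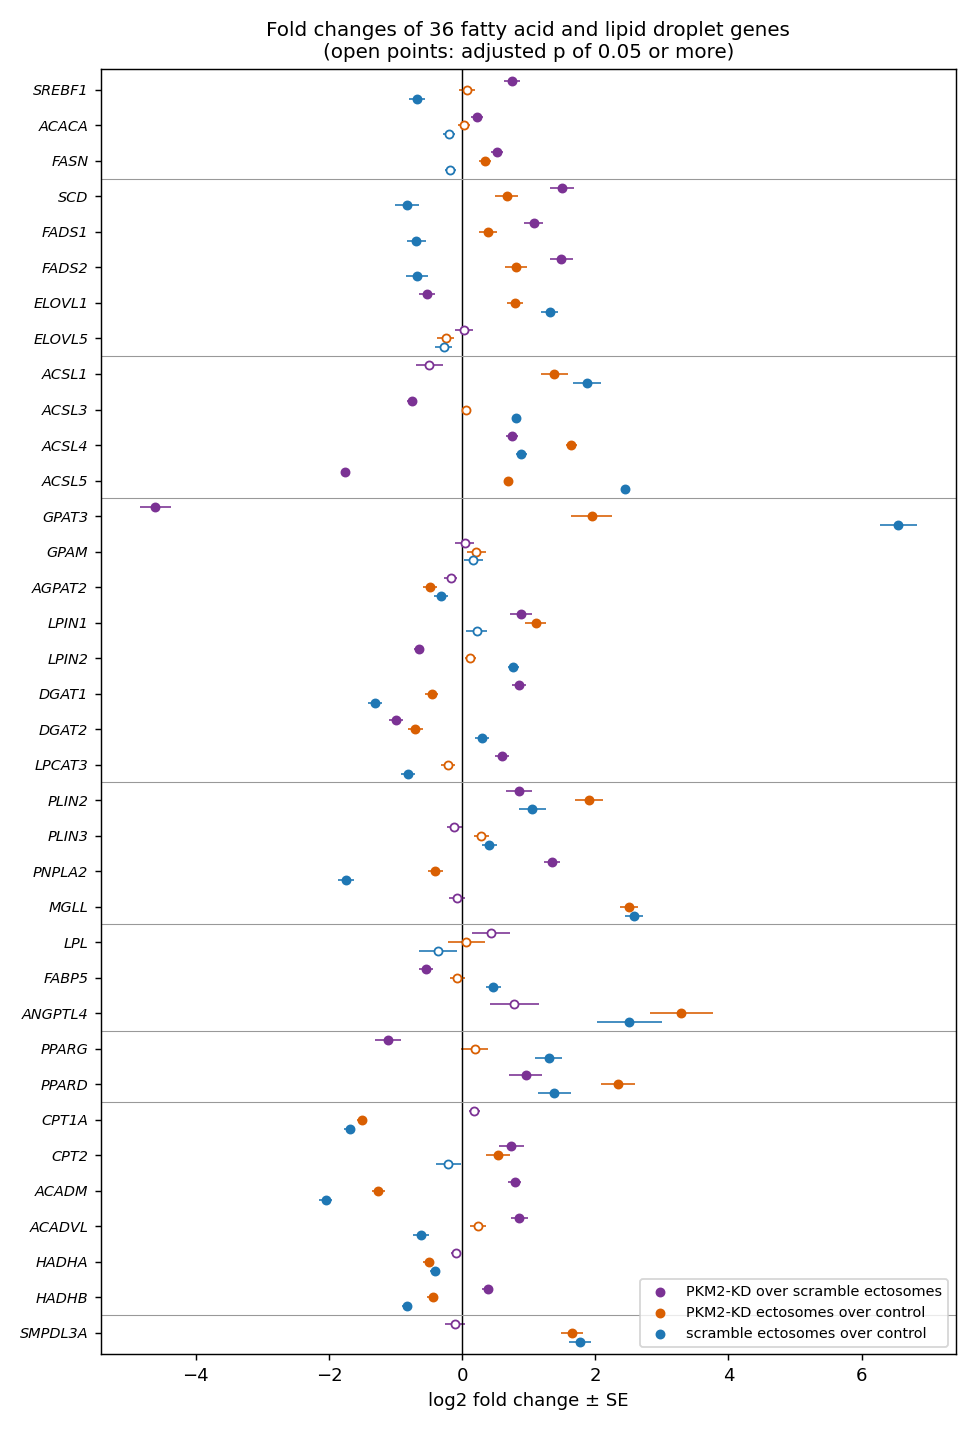
Log2 fold changes with SE (horizontal axis) of the 36 tested genes (rows, parted by role) for PKM2-knockdown over scramble ectosomes, PKM2-knockdown ectosomes over control and scramble ectosomes over control; filled points passed an adjusted p of 0.05. GPAT3 reaches 6.55 with scramble ectosomes over control and -4.61 with PKM2-knockdown over scramble ectosomes, and SCD, FADS1 and FADS2 lie right of 0 with PKM2-knockdown and left of 0 with scramble ectosomes over control.

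Per length, as mean CPM per kb of exon in GENCODE release 29, SCD was the highest of the 38 genes with PKM2-knockdown ectosomes (334 CPM per kb) and in control cells (210 CPM per kb). With scramble ectosomes ELOVL1 (165 CPM per kb) stood above SCD (118 CPM per kb). PPARD came next to SCD with PKM2-knockdown ectosomes at 197 CPM per kb, and had 102 CPM per kb with scramble ectosomes and 38.9 CPM per kb in control cells. Summed over the 38 genes, levels were 8683 to 9108 CPM with PKM2-knockdown ectosomes, 5781 to 5977 CPM with scramble ectosomes and 5508 to 6831 CPM in control cells. The desaturation and elongation genes made up 3631 to 3946, 1813 to 1948 and 1941 to 2849 CPM of these sums.

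Further genes of the pathway were counted by list, and 33 of 116 tested rose and 59 fell with scramble ectosomes against control, while 57 rose and 24 fell between the kinds of ectosomes and 33 rose and 39 fell with PKM2-knockdown ectosomes against control. Of all rows 34.6% rose and 33.2% fell, 31.4% and 30.3%, and 27% and 26.7%, in the same order. These lists were chosen with earlier results of these data known. The first 2 comparisons share the scramble-ectosome libraries, so they are not separate findings. Of 19 tested genes of mitochondrial oxidation and ketone body use that are not among the 38, 1 rose and 15 fell with scramble ectosomes against control (median log2 fold change -1.03, against -0.01 for all rows), 13 rose and 0 fell with PKM2-knockdown against scramble ectosomes (median 0.95, against 0.03), and 3 rose and 10 fell with PKM2-knockdown ectosomes against control (median -0.29, against -0.01). BDH1, which interconverts the ketone bodies, had 21.9 to 26.2 CPM with PKM2-knockdown ectosomes, 3.20 to 3.95 CPM with scramble ectosomes and 34.2 to 50.0 CPM in control cells, and fell by 3.58 log2 units with scramble ectosomes against control (adjusted p = 2.43e-08). OXCT1, the enzyme that lets cells use ketone bodies, was 4.21-fold lower in the same comparison (adjusted p = 2.98e-08) and 2.38-fold higher with PKM2-knockdown than with scramble ectosomes (adjusted p = 1.92e-06).

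Of 19 further genes of synthesis and elongation, 5 rose and 8 fell with scramble ectosomes against control, and 8 rose and 7 fell between the kinds of ectosomes (median log2 fold change -0.02). The 5 further desaturase and elongase genes tested, named here after their values were seen, did not move as 1 group. SCD5, ELOVL2 and ELOVL3 were 1.56-fold, 4.36-fold and 4.80-fold lower with scramble ectosomes than in control (adjusted p up to 0.00682) and 3.19-fold, 2.17-fold and 7.35-fold higher with PKM2-knockdown than with scramble ectosomes (adjusted p up to 0.000269), the directions of SCD, FADS1 and FADS2 in these 2 comparisons. With PKM2-knockdown ectosomes against control only SCD5 was higher like them (2.05-fold, adjusted p = 0.000341). In that comparison ELOVL2 was 2.01-fold lower (adjusted p = 0.000363) and ELOVL3 did not pass the test (adjusted p = 0.134). ELOVL3 was low, at 0.16 to 0.43 CPM with scramble ectosomes. FADS3, a relative of FADS1 and FADS2, went the other way in the first 2 of these comparisons, with 56.1 to 62.6 CPM with PKM2-knockdown ectosomes, 94.9 to 96.7 CPM with scramble ectosomes and 10.7 to 21.1 CPM in control cells. It rose 5.41-fold with scramble ectosomes against control (adjusted p = 1.46e-06) and was 1.61-fold lower with PKM2-knockdown than with scramble ectosomes (adjusted p = 0.00832). ELOVL7 rose 3.75-fold with scramble ectosomes against control (adjusted p = 4.44e-05) and did not pass the test between the kinds of ectosomes (adjusted p = 0.106). ACACB, the mitochondrial carboxylase whose malonyl-CoA restrains CPT1, had 25.9 to 28.6 CPM with PKM2-knockdown ectosomes, 4.22 to 6.63 CPM with scramble ectosomes and 38.8 to 40.3 CPM in control cells. It was 6.94-fold lower with scramble ectosomes than in control (adjusted p = 5.33e-08) and 4.71-fold higher with PKM2-knockdown than with scramble ectosomes (adjusted p = 5.59e-07). OLAH, a thioesterase that releases medium-chain fatty acids from the synthase, moved the other way, with 0.59 to 0.75 CPM with PKM2-knockdown ectosomes, 32.0 to 34.3 CPM with scramble ectosomes and 0 to 0.60 CPM in control cells. It was 89.6-fold higher with scramble ectosomes than in control (adjusted p = 7.75e-08) and 48.6-fold lower with PKM2-knockdown than with scramble ectosomes (adjusted p = 2.69e-07).

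Of 17 further droplet and lipolysis genes, 8 rose and 6 fell with scramble ectosomes against control, 6 rose and 6 fell between the kinds of ectosomes, and 5 rose and 6 fell with PKM2-knockdown ectosomes against control. PNPLA3, a relative of PNPLA2 on droplets, had 58.2 to 72.9 CPM with PKM2-knockdown ectosomes, 13.1 to 14.1 CPM with scramble ectosomes and 34.7 to 41.6 CPM in control cells, and was 4.86-fold higher with PKM2-knockdown than with scramble ectosomes (adjusted p = 8.18e-08). PNPLA3 overlaps SAMM50 on its own strand. ABHD6, another monoglyceride lipase, rose like MGLL, 3.71-fold with PKM2-knockdown and 3.58-fold with scramble ectosomes against control (adjusted p up to 7.39e-07).

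Of 18 hepatocyte and hepatoma markers, 11 were in the table and 6 had enough reads to be tested. Of these 6, 0 rose and 3 fell with scramble ectosomes against control, and 4 rose and 0 fell between the kinds of ectosomes. With PKM2-knockdown ectosomes against control 2 rose and 2 fell. The summed level of the 11 markers was 55.5 to 61.8 CPM with PKM2-knockdown ectosomes, 11.8 to 12.9 CPM with scramble ectosomes and 24.3 to 33.6 CPM in control cells. SERPINA1, which macrophages also express, made up 34.6 to 41.5 CPM of the sum with PKM2-knockdown ectosomes, while ALB stood at 0.33 to 0.52 CPM with PKM2-knockdown ectosomes, 0.09 to 0.14 CPM with scramble ectosomes and 0.06 to 0.17 CPM in control cells. TTR and HNF4A had 0 reads with PKM2-knockdown ectosomes, 0 to 5 reads with scramble ectosomes and 0 reads in control cells. The rest of the sum came from other markers of this list. The part of donor-cell RNA in the changes above was not tested. Of 10 monocyte markers, 3 rose and 6 fell with scramble ectosomes against control, 7 rose and 0 fell between the kinds of ectosomes, and 5 rose and 3 fell with PKM2-knockdown ectosomes against control. Their summed level was 1827 to 1925 CPM with PKM2-knockdown ectosomes, 1242 to 1291 CPM with scramble ectosomes and 939 to 1052 CPM in control cells. The part of this shift in monocyte markers in the lipid gene changes was not tested.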

How the data were processed

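THP-1 RNA was profiled in 9 libraries. Trizol extraction and NEBNext Ultra RNA libraries on an Illumina HiSeq are given per the labels' protocols. The authors deposited raw, unscaled read counts per gene symbol. The submitters' processing notes name HISAT2 2.0.5, featureCounts 1.5.0-p3 and GRCh38. No annotation, strand setting or filter is given in these sources, so overlapping genes may share reads. Rows were tested with edgeR 4.0.16 in R 4.3.3: filterByExpr by group left 18437 of 30000 rows and at least 99.8% of each library's counts. TMM scaling and 1 quasi-likelihood fit over all 9 libraries, with group as the only term, left 6 residual degrees of freedom. Tests were two-sided and the threshold was 0.05 after Benjamini-Hochberg adjustment over the 18437 rows, and every adjusted p is from this test unless another is named. The SE is the absolute log2 fold change over the square root of F. DESeq2 1.42.0 was an alternative. The code was tested on simulated data in which only a small part of the rows changed. That test does not speak to data in which most rows were called. Members and lists were chosen with earlier results of these data known. All 38 members are named, and of each further list up to 2 tested genes with the smallest p. PKM and some cell type markers are also named, as are the further desaturase and elongase genes tested. The last were named after their values were seen. Gene lengths and overlaps are from GENCODE release 29, and upstream sequences from RefSeq. Replicate numbers are shared between groups, but same-numbered libraries did not deviate together, so they were not treated as pairs.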

Additional observations from a re-analysis of the deposited data

Results flagged for a closer look

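SCD, FADS1, FADS2 and DGAT2 were flagged because they were called in opposite directions with the 2 kinds of ectosomes against the same controls. The share of all rows with such opposite calls was not computed, so whether these genes are unusual in this is not known. The difference between the kinds was also called, which follows largely from the opposite calls and is no separate evidence. SCD, FADS2 and FADS1 were higher with PKM2-knockdown ectosomes and lower with scramble ectosomes than in control, with log2 fold changes of 1.498, 1.491 and 1.074 for PKM2-knockdown against scramble ectosomes. DGAT2 was lower with PKM2-knockdown ectosomes and higher with scramble ectosomes than in control, with a log2 fold change of -0.998 between the kinds. For SCD and FADS2 the calls against control held under every alternative run, while those of FADS1 with PKM2-knockdown ectosomes and of DGAT2 with scramble ectosomes did not.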

How the results depend on the processing

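Alternatives were library totals or DESeq2 size factors in place of TMM, no filter on low counts, the DESeq2 Wald test, a fit of the 6 libraries compared, a replicate block and leaving out each library. With scramble ectosomes against control 28 of the 36 genes kept their direction and side of the threshold under all of them, as did 31 for PKM2-knockdown against scramble ectosomes and 29 for PKM2-knockdown ectosomes against control. LPL with PKM2-knockdown ectosomes against control had a log2 fold change of 0.07, which ranged from -0.27 without control replicate 3 to 0.27 when another library was left out. Genes called among the 36 numbered 27 to 31, 24 to 25 and 21 to 27 when a library was left out. Calls over all rows then ran from 11485 to 13640, 10175 to 10549 and 8399 to 10997, in place of 12492, 11365 and 9904. Library totals alone moved the median log2 fold change of all rows to -0.21 with scramble ectosomes against control and to 0.20 for PKM2-knockdown against scramble ectosomes. The split of all calls then became 5129 higher and 7630 lower in place of 6377 and 6115, and 7051 and 4331 in place of 5782 and 5583. Among the 36 genes it became 14 and 16 in place of 16 and 13, and 19 and 8 in place of 17 and 8. Same-numbered libraries correlated from -0.134 to 0.0948 in their deviations from group means, and with the replicate block 29, 26 and 24 of the 36 genes were called, against 29, 25 and 24 without it. Over all rows the block gave 12179, 11035 and 9401 calls. For PKM2-knockdown against scramble ectosomes the block ended the call of ACACA (adjusted p = 0.0713) and called ACSL1 (0.0368) and ANGPTL4 (0.0302), and it changed no other call among the 36 genes. For low genes such as ANGPTL4 and GPAT3 in control cells the read number limits the precision of folds.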

Other observations

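Regulators and peroxisomal genes outside the 38 were also counted. Of all rows, 34.6% rose and 33.2% fell with scramble ectosomes against control, and 31.4% rose and 30.3% fell between the kinds of ectosomes. Of 19 tested regulators, 5 rose and 9 fell with scramble ectosomes against control, and 10 rose and 3 fell with PKM2-knockdown against scramble ectosomes. RXRA, the partner of the PPARs, had 260 to 290 CPM with PKM2-knockdown ectosomes, 206 to 226 CPM with scramble ectosomes and 90.6 to 109 CPM in control cells, and rose 2.69-fold and 2.12-fold against control (adjusted p up to 1.55e-06). UCP2, a mitochondrial carrier, had 143 to 165 CPM with PKM2-knockdown ectosomes, 28.0 to 32.3 CPM with scramble ectosomes and 126 to 175 CPM in control cells, and was 4.90-fold lower with scramble ectosomes than in control (adjusted p = 7.12e-08). Of 15 peroxisomal genes, 8 rose and 3 fell between the kinds of ectosomes, and 5 rose and 10 fell with scramble ectosomes against control. PECR, a reductase of enoyl-CoA, rose 2.06-fold (adjusted p = 9.05e-06), while EHHADH, the bifunctional enzyme of peroxisomal oxidation, was 3.48-fold lower (adjusted p = 3.76e-07).

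Of 13 tested further genes of glycerolipid synthesis, 4 rose and 4 fell with scramble ectosomes against control. AGPAT4 rose 5.70-fold with PKM2-knockdown ectosomes and 2.27-fold with scramble ectosomes against control (adjusted p up to 1.18e-05), and LPCAT4 was 4.34-fold lower with scramble ectosomes than in control (adjusted p = 4.60e-07). Of 14 tested genes of uptake and activation, 5 rose and 7 fell with scramble ectosomes against control, and 8 rose and 3 fell between the kinds of ectosomes. VLDLR, a lipoprotein receptor, was 2.51-fold lower with PKM2-knockdown than with scramble ectosomes (adjusted p = 1.02e-07), and LIPA, the acid lipase of lysosomes, was 2.87-fold higher (adjusted p = 1.73e-07). IFIT1, IFIT2 and IFIT3 overlap LIPA on the other strand.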
